A study of Mus musculus with 6 samples.

Results

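Mid-capillary endothelial cells of the mouse brain were examined in single-cell RNA-seq libraries of brain microvessels, after deletion of the tight-junction gene Cldn5 in endothelial cells. They were chosen by marker genes. A barcode needed at least 1000 UMIs, which are counted transcript molecules, at most 15% mitochondrial UMIs, at least 3 of 5 endothelial genes (Pecam1, Cdh5, Flt1, Ly6c1, Esam) and at most 2 UMIs of mural and microglial genes. It then had to show at least 2 of the 4 mid-capillary genes Mfsd2a, Rgcc, Tfrc and Cxcl12, at most 1 of 6 arterial and at most 1 of 6 venous-side genes, and no UMI of Apln, Plvap, Ackr1 or Ccn3. Of 22474 cells in the endothelial gate, 6977 met the rule, or 31.0%. There were 1581, 481 and 892 such cells in iECKO 1 to 3, against 1695, 1521 and 807 in control 1 to 3.

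Brain capillaries grade from an arterial to a venous end, and the middle of this gradient is where most exchange of nutrients takes place. Its endothelial cells are sealed by tight junctions, carry transporters for glucose, amino acids and lipids, and keep vesicle traffic low through the lipid carrier Mfsd2a. Claudin-5, the product of Cldn5, forms the strands of these junctions and limits the passage of small molecules.

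The iECKO mice were C57Bl6 with R26 YFP/YFP, Cldn5 fl/fl and Cdh5-creERT2+. Their recombinase is switched on by tamoxifen and driven in endothelial cells by the promoter of VE-cadherin. Control mice were C57Bl6 Cldn5 fl/fl, R26 YFP/YFP without the recombinase. Animals of both groups received tamoxifen by gavage at about 3 months of age, 100 µl of a 20 mg/ml solution on 3 days in 90% peanut oil and 10% ethanol, so controls share the floxed alleles, the reporter and the drug. The series title calls the deletion mosaic. Vessel fragments were pulled down with beads carrying a PECAM1 antibody and sequenced with 10x Genomics 3′ chemistry, with 3 libraries per group. Whether each library comes from a single animal is not stated. The p-values between the groups rest on the spread of these 6 libraries. Those between classes of cells within iECKO rest on the 3 iECKO libraries alone, each entered once per class. The fits that compare zones of the vessel enter each library once per zone. Which part of Cldn5 is floxed is not stated either, and the YFP feature had 0 UMIs in every library, so recombined cells could not be marked directly.

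The libraries held 15727366 to 49350802 UMIs (iECKO) and 29721428 to 31638780 UMIs (control). The mid-capillary cells contributed 6375607, 2173011 and 4456856 UMIs in iECKO 1 to 3, against 5705205, 5031966 and 3201822 UMIs in control 1 to 3, with medians of 3399 to 4623 and 3032 to 3658 UMIs per cell. Median mitochondrial shares were 3.97% to 4.48% in iECKO and 3.28% to 3.63% in control cells. Libraries with the same replicate number resembled each other in the level of 1 predicted gene. It was at 101537, 184566 and 36935 CPM in iECKO 1 to 3, against 102293, 227722 and 41191 CPM in control 1 to 3. At a fixed depth the UMIs left for other genes thus differ between libraries. Xist set replicate 2 alone apart, at 908 CPM in iECKO 2 and 753 CPM in control 2 and under 1 CPM in the other libraries. No pair of libraries shared more than 16 barcodes or more than 1 mid-capillary barcode. Summed erythrocyte markers stood at 2647 to 8194 CPM in iECKO cells, against 8977 to 10358 CPM in control cells. Astrocyte markers were at 121 to 214 CPM against 71.7 to 100.3 CPM, and ependymal and choroid plexus markers at 178 to 768 CPM against 1.56 to 344 CPM. Pericyte and microglial marker sums overlapped between the groups, at 22.7 to 36.3 against 17.8 to 28.8 CPM and at 29.0 to 56.0 against 38.1 to 48.7 CPM. The part of these transcripts in the results below was not tested.

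The label was checked in the control libraries, which carry no recombinase. CPM are scaled here in the same way, to the summed UMIs of the cells of each zone. Mfsd2a averaged 386 ± 39.6 CPM in mid-capillary cells, 311 ± 60.7 CPM in arterial cells and 241 ± 43.6 CPM in venous-side capillary cells (SD, n = 3 libraries). Rgcc, a regulator of the cell cycle, and the chemokine gene Cxcl12 were also highest in the mid-capillary cells of every control. Tfrc, the transferrin receptor, was not: it averaged 449 ± 64.3 CPM in mid-capillary and 487 ± 56.6 CPM in venous-side cells. These 4 genes chose the cells, so their levels describe the choice. Of 25 capillary markers that the rule did not use, 19 reached 10 CPM. Among these 19, 6 were highest in mid-capillary cells in all 3 controls, 2 in arterial and 6 in venous-side cells, with the rest mixed. All 16 measured arterial markers outside the rule were highest in arterial cells, and 13 of 14 venous markers in venous-side cells. The arterial marker Tm4sf1 was still well detected in mid-capillary cells, at 694 ± 177 CPM. Tek, the venous-list gene that was highest in arterial cells, differed little between zones. It averaged 389 ± 37.6 CPM in mid-capillary, 466 ± 52.6 CPM in arterial and 412 ± 41.6 CPM in venous-side cells. Capillary genes outside the rule were split between the mid-capillary and the venous-side cells.

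The markers that define the cells were not level between the groups. From here on CPM also carry TMM scaling factors unless stated otherwise, so they differ from the values above. Cxcl12 was at 829, 2149 and 2755 CPM in iECKO 1 to 3, against 3726, 4152 and 4438 CPM in control 1 to 3, and every iECKO library lay below every control. Tfrc stood at 213, 325 and 309.8 CPM in iECKO cells and at 393, 569 and 401 CPM in control cells, also without overlap. Mfsd2a was at 402, 372 and 279.5 CPM against 444, 397 and 325 CPM, and Rgcc at 783, 335 and 517 CPM against 1030, 353 and 535 CPM. Both overlapped between the groups, and both were lower in the iECKO library of each replicate number. The 4 genes chose the cells, so their levels describe the chosen cells and give no test of a group difference. Cells that just met the rule, with exactly 2 of the 4 genes, made up 46.6%, 39.3% and 26.7% of the mid-capillary cells in iECKO 1 to 3, against 31.7%, 40.8% and 27.0% in control 1 to 3. Cells that just missed it, with 1 of the 4 genes and everything else in order, numbered 477, 116 and 92 in iECKO 1 to 3 and 152, 330 and 100 in control 1 to 3. The demand for no Apln or Ccn3 UMI removed 9.03%, 8.03% and 3.57% of otherwise fitting cells in iECKO 1 to 3, against 1.85%, 1.36% and 1.71% in the controls. Apln encodes a peptide made by tip cells of growing vessels, and cells with this transcript are outside the cells described here.

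Cldn5 lies on chromosome 16 of GRCm38 (chr16:18776847-18778262, plus strand). In mid-capillary cells it was at 3197, 2291 and 2408 CPM in iECKO 1 to 3, against 4693, 4202 and 4460 CPM in control 1 to 3 (CPM: counts scaled to the same total in every library, with TMM factors). Every iECKO library lay below every control. The log2 difference was -0.76 ± 0.22 (SE), above the threshold of 0.05 in edgeR's quasi-likelihood test (adjusted p = 0.256). With the replicate number as a block it was -0.77 ± 0.12 and passed (adjusted p = 0.00145), as it did with DESeq2 (adjusted p = 0.00559). A 3′ tag that lies beyond the deletion is counted all the same, so these are levels of transcript.

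The transcript was unevenly lost from cell to cell. Each cell was thinned to 2000 UMIs at random, which left out 233, 60 and 40 shallower cells in iECKO 1 to 3 and 299, 314 and 86 in control 1 to 3. At that depth 25.3%, 26.1% and 24.5% of the mid-capillary cells of iECKO 1 to 3 held no Cldn5 UMI (95% Clopper-Pearson intervals together spanning 21.7% to 30.6%). In control 1 to 3 the shares were 1.43%, 1.66% and 0.416% (0.877% to 2.20%, 1.02% to 2.55% and 0.0859% to 1.21%). These intervals cover counting error only. The 3 iECKO libraries were close to one another and all far above the controls, with means of 25.3% ± 0.799 and 1.17% ± 0.661 (SD, n = 3). The two-sided exact permutation p was 0.1, the smallest that 3 libraries against 3 allow. Microglia and pericytes do not make claudin-5, and Cldn5 UMIs in them were read as a background of free RNA. Their gates allowed at most 2 UMIs summed over the 5 endothelial genes. This leaves out cells with more free endothelial RNA, so the background may be too low. At the same depth, 91.7% ± 5.29 of microglia and 83.2% ± 2.16 of pericytes in iECKO libraries had no Cldn5 UMI, against 86.8% ± 8.92 and 84.8% ± 6.11 in control libraries. Before thinning, the mid-capillary cells with at least 2000 UMIs had medians of 3764 to 4687 UMIs (iECKO) and 3311 to 3855 UMIs (control), and the microglia medians of 3324 to 5745 and 3643 to 5068 UMIs. Thinning to 1000 UMIs gave 33.1% against 5.63%, thinning to 4000 UMIs 17.1% against 0.084%, and no thinning 20.0% against 1.26%.

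**Figure D1:**
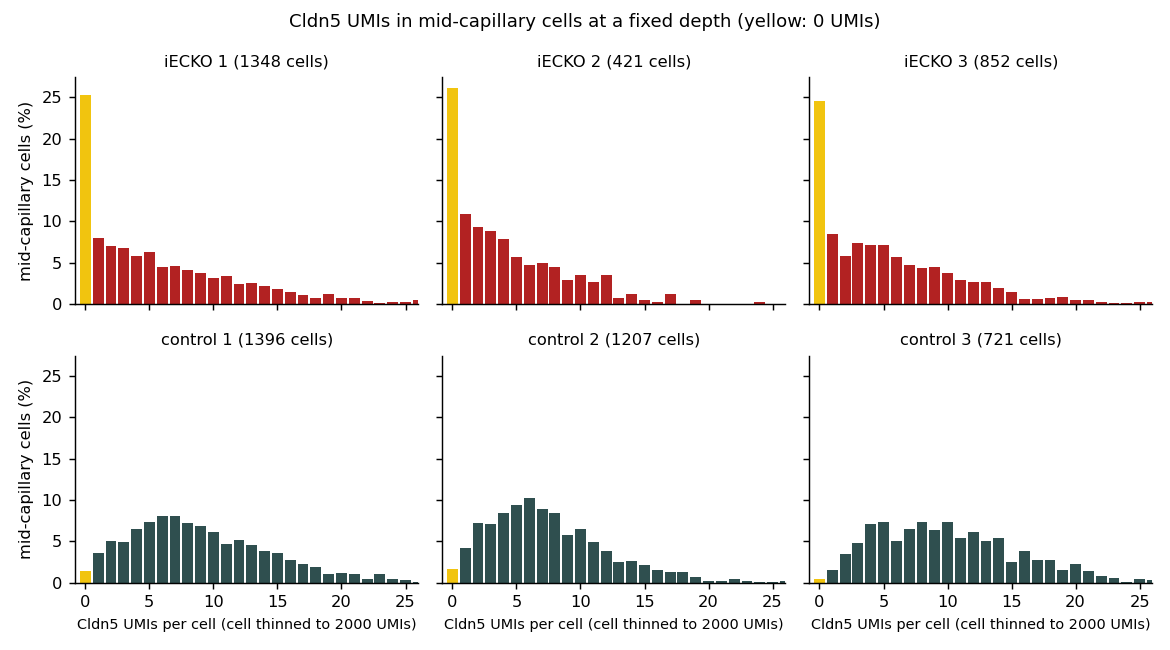
Distribution of Cldn5 UMIs per mid-capillary cell after thinning to 2000 UMIs, as percent of cells in each library, iECKO libraries before controls. The share at 0 UMIs is 24.5% to 26.1% in the iECKO libraries and at most 1.66% in the controls.

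Between these extremes, cells with 1 Cldn5 UMI numbered 107, 46 and 72 in iECKO 1 to 3, against 50, 50 and 11 in control 1 to 3. Cells with at least 2 UMIs, called Cldn5-kept, numbered 900, 265 and 571 in iECKO and 1326, 1137 and 707 in control libraries. Their median was 7, 5 and 7 Cldn5 UMIs in iECKO 1 to 3, against 9, 7 and 10 in control 1 to 3. Within each replicate number the iECKO median was the lower one. The plot of Cldn5 UMIs per cell shows both features: a peak at 0 in the iECKO libraries, and fewer UMIs in the other cells than in the controls.

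The mean expression of all other genes was compared on counts summed over the mid-capillary cells of each library. Of 10842 genes tested, 36 rose and 3 fell in iECKO cells (0.332% and 0.0277%, edgeR's quasi-likelihood test, Benjamini-Hochberg adjusted p under 0.05, 0.36% in all), and 900 had an unadjusted p under 0.05. With the replicate number as a block, 327 rose and 132 fell (3.02% and 1.22%, 4.23% in all), and 37 of the 39 genes were called by both fits. DESeq2 called 126 higher and 23 lower, among them all 39. Leaving out a library changed the counts: 7 higher and 1 lower without control 1, 5 and 1 without control 2, 7 and 3 without control 3, 11 and 1 without iECKO 2, and 182 and 34 without iECKO 3. Ccnd1, Meox1, Prnd and Edn1 were called in each of the 6 fits with 1 library left out, and the other 35 genes lost their call in at least 1 of them. Below, "paired fit" means the fit with the replicate block, and values without a remark come from the fit without it.

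Ccnd1 and Meox1 had, with Prnd, the lowest adjusted p of the genes that rose. Ccnd1 encodes cyclin D1, which drives cells out of the resting phase of the cell cycle. It was at 284, 274 and 173 CPM in iECKO 1 to 3, against 64.6, 56.4 and 64.4 CPM in control 1 to 3. The lowest iECKO library was above every control, and the log2 difference was 1.98 ± 0.21 (SE, adjusted p = 0.0012). Meox1, a homeobox transcription factor gene, was at 119.6, 89.5 and 75.1 CPM against 24.8, 24.0 and 28.2 CPM, with groups as clearly apart (1.89 ± 0.20, adjusted p = 0.0012). In the control libraries both genes varied little, and in the iECKO libraries both were lowest in iECKO 3.

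Genes of endothelial activation also rose. Cx3cl1, which encodes the membrane-bound chemokine fractalkine, stood at 217, 159 and 120.3 CPM in iECKO 1 to 3, against 63.3, 64.2 and 57.6 CPM in the controls (1.42 ± 0.21, adjusted p = 0.0118). Icam1, the adhesion receptor on which leukocytes arrest, was at 85.4, 70.6 and 63.6 CPM against 22.1, 39.3 and 18.6 CPM (1.46 ± 0.25, adjusted p = 0.038). Both genes were higher in every iECKO library than in any control, as the naming rule required. Tnfaip3, the feedback inhibitor A20 of NF-kappaB signalling, was at 73.3, 54.7 and 33.0 CPM against 9.58, 18.2 and 14.5 CPM. Its log2 difference of 1.94 ± 0.32 passed without pairing (adjusted p = 0.044) and not in the paired fit (adjusted p = 0.0959). Il2rg, the gamma chain shared by several cytokine receptors, was at 127, 72.6 and 61.2 CPM in iECKO cells and 32.2, 31.7 and 25.5 CPM in control cells (1.55 ± 0.26, adjusted p = 0.0332). As in the other genes named here, iECKO 1 held the highest value.

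The other 6 of the 12 most raised genes belong to several functions. Slc12a2 encodes a sodium, potassium and chloride cotransporter of the endothelial membrane and stood at 88.7, 74.6 and 44.1 CPM against 21.0, 22.0 and 24.7 CPM (1.62 ± 0.24, adjusted p = 0.0118). Bcl2, which protects cells from apoptosis, was at 62.0, 60.7 and 40.7 CPM against 23.9, 20.4 and 18.1 CPM (1.37 ± 0.20, adjusted p = 0.0118). In both genes the lowest iECKO value was that of iECKO 3. Nid1, a linker protein of the basement membrane, was at 111, 121 and 73.1 CPM in iECKO and 36.0, 44.8 and 39.5 CPM in control cells (1.34 ± 0.20, adjusted p = 0.0118). Capg, an actin filament capping protein, was at 258, 122 and 140.1 CPM against 69.4, 57.7 and 69.1 CPM (1.41 ± 0.26, adjusted p = 0.0482). Ecscr, an endothelial surface protein, rose by a log2 difference of 1.28 ± 0.21 (adjusted p = 0.0221), and Kctd17 by 1.31 ± 0.24 (adjusted p = 0.0442). No iECKO library overlapped a control in any of these 6 genes, as the naming rule required.

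Some genes that rose were low in control mid-capillary cells; they average under 30 CPM and were picked out after their values were seen. Fscn1, the actin-bundling protein fascin, was at 42.4, 24.9 and 14.6 CPM in iECKO 1 to 3, against 0.362, 0.666 and 0.822 CPM in control 1 to 3 (adjusted p = 0.00141). Kit, a receptor tyrosine kinase, was at 40.4, 22.4 and 15.6 CPM against 1.08, 2.22 and 3.02 CPM (adjusted p = 0.00853). Prnd, the gene of the prion relative doppel, was at 11.6, 20.9 and 18.2 CPM against 1.27, 1.78 and 1.64 CPM (3.40 ± 0.34, adjusted p = 0.0012). In all of them every iECKO library was above every control. Since the genes of this paragraph were already called, groups that lie apart only describe them. The share of all genes with groups apart is not given here. Lamb1, a laminin chain, and Cd82, a tetraspanin, were also apart, at 6.31, 12.9 and 3.56 CPM against 0.542, 0.444 and 0.274 CPM and 69.8, 38.3 and 31.8 CPM against 5.61, 4.66 and 8.77 CPM. Their log2 differences were 3.92 ± 0.62 and 2.91 ± 0.34 (adjusted p = 0.0163 and 0.00853).

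**Figure D2:**
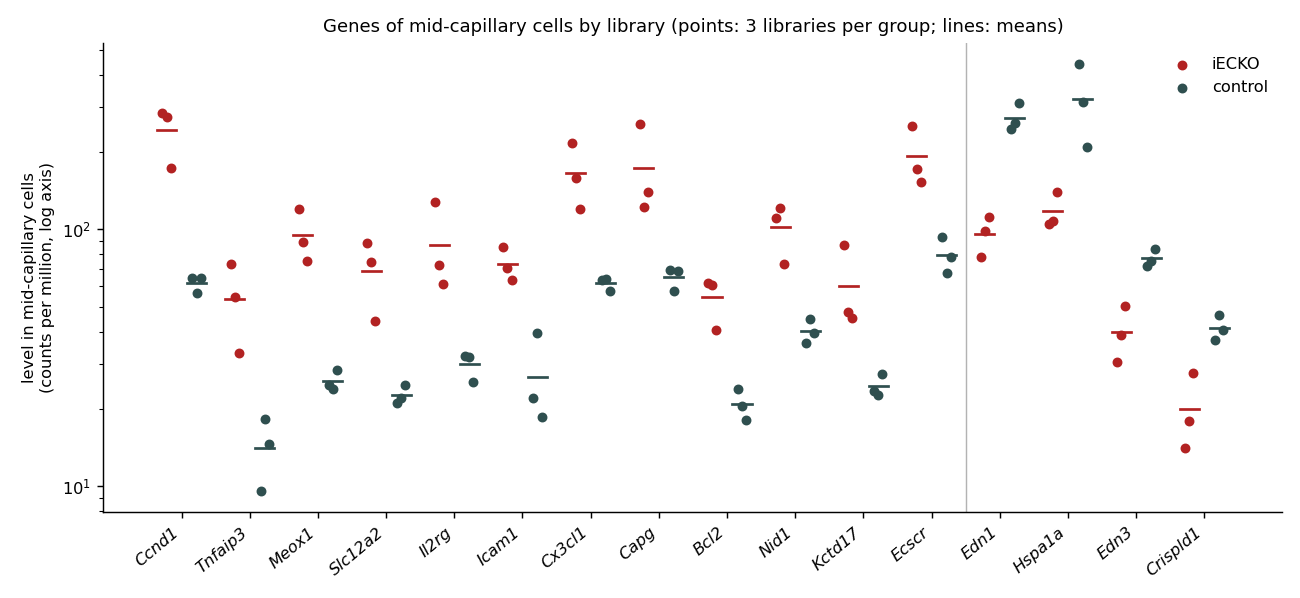
CPM of the named genes in mid-capillary cells, 1 point per library on a log axis, iECKO points left of control points. In Ccnd1 the 3 iECKO libraries lie at 173 to 284 CPM, above the controls at 56.4 to 64.6 CPM, and in Edn1 they lie at 77.7 to 111 CPM, below the controls at 245 to 309 CPM.

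Few genes fell without pairing. Edn1, the precursor of the vasoconstrictor endothelin-1, was at 77.7, 98.9 and 111 CPM in iECKO 1 to 3, against 245, 261 and 309 CPM in control 1 to 3. The highest iECKO value was under the lowest control value, with a log2 difference of -1.50 ± 0.19 (SE, adjusted p = 0.00514). Edn1 is also one of the arterial markers outside the rule, and it was highest in arterial cells of every control. Between the groups, the 13 tested markers of that list had a median log2 difference of -0.32. The 13 venous ones had a median of 0.30 and the 21 capillary ones -0.20, against 0.00 over all genes. The part of position along the vessel in the group differences was not tested. Hspa1a, an inducible heat-shock protein 70, was at 105, 108 and 139.9 CPM against 441, 313 and 209 CPM and fell by 1.45 on the log2 scale (adjusted p = 0.0326), but not in the paired fit (adjusted p = 0.212). Its control values differed more among themselves than its iECKO values did. The third gene, Col14a1, a fibril-associated collagen, was low throughout at 2.82, 4.47 and 9.68 CPM against 23.9, 34.0 and 24.4 CPM (adjusted p = 0.038).

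The paired fit added 10 genes that fell, by the same size rule. None of them passed without pairing, where their adjusted p ranged upward from 0.0583. Edn3, another endothelin, was at 30.4, 38.8 and 50.2 CPM in iECKO cells, against 72.2, 75.0 and 84.2 CPM in control cells (paired log2 difference -0.98, adjusted p = 0.000446). Sema3c, a secreted semaphorin, was at 366, 535 and 377 CPM against 752, 825 and 731 CPM (-0.88, adjusted p = 0.000444). Glul, glutamine synthetase, was at 445, 400.3 and 600.4 CPM against 776, 889 and 959 CPM (-0.87, adjusted p = 0.000562). In all of these the groups did not overlap, as the naming rule required. Spock2, the proteoglycan testican-2, was at 1189, 1956 and 2156 CPM against 2849, 3434 and 3198 CPM (-0.88, adjusted p = 0.00187). The remaining genes were the secreted protein gene Crispld1 (-1.07), the growth-arrest gene Gadd45g (-0.92), the matrix gene Ecm2 (-0.87), the scramblase gene Plscr2 (-0.86), the hyaluronan receptor gene Layn (-0.85) and the epoxide hydrolase gene Ephx1 (-0.77), with paired adjusted p of 0.00187 to 0.0111.

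Gene lists of known functions were then described by their members. Over all 10842 genes the median log2 difference was 0.00, with 5489 genes above 0, and 0.36% were called without pairing and 4.23% in the paired fit. Of 26 genes of endothelial activation and leukocyte adhesion, 19 were tested. All 19 differences were above 0, the median was 1.18, 6 rose without pairing and 9 in the paired fit. Besides Cx3cl1, Icam1 and Tnfaip3, the called genes were the NF-kappaB subunit genes Relb (1.18 ± 0.17, adjusted p = 0.0118) and Nfkb2 (1.20 ± 0.23, adjusted p = 0.0482) and Csf1, the growth factor of macrophages and microglia. Csf1 was at 45.8, 72.6 and 52.2 CPM in iECKO 1 to 3, against 23.5, 26.9 and 23.8 CPM in control 1 to 3 (1.18 ± 0.20, adjusted p = 0.0224). The neutrophil chemokine gene Cxcl1 was at 45.0, 37.8 and 20.0 CPM against 8.32, 11.3 and 4.66 CPM. It missed the threshold without pairing (2.05 ± 0.36, adjusted p = 0.0513) and passed in the paired fit (2.11 ± 0.19, adjusted p = 1.61e-05). Il1r1, Lcn2 and Rela were called in the paired fit alone. Il1r1, Lcn2, Icam1 and Vcam1 are also on the list of venous markers outside the rule. Vcam1, another leukocyte receptor, was at 111, 30.3 and 21.1 CPM in iECKO 1 to 3, against 9.40 to 21.1 CPM in the controls. It was higher in iECKO within each replicate number, by far the most in replicate 1, and was not called (adjusted p = 0.633, paired 0.51). Nfkbia (0.10) and Icam2 (0.17) were close to level. Sele, Selp, Ccl2 and Il6 were under the count filter.

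Promoters of this list were read because its called genes moved in 1 direction. NF-kappaB dimers bind the kappa-B element, which was searched on both strands in 2 forms that can overlap: GGGA and TTTCC with any 1 base between them, and GGAANTTCC. The search covered the 250 bases before each RefSeq start on GRCm38.p6. Of the 26 genes 19 had a promoter in the table, and 9 of these 19 held a match, as did 5 of the 9 called in either fit that had one. Cxcl10, Il6, Nfkbia and Madcam1, which were called in neither fit, held a match too. Counted by start, since some genes have several, 9 of 24 held a match. Over all 32851 promoters, also counted by start, 0.356% held the longer form, 0.813% the shorter and 1.08% either. The 4 promoters below, of called genes with a match before their first start, show the letters found in capitals, 5′ to 3′ on the strand of the gene.
Icam1: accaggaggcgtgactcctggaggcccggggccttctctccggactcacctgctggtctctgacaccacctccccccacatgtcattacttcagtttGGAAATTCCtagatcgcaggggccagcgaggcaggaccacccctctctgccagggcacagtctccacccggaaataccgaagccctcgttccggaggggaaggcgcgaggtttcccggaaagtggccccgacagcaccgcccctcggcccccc
Cxcl1: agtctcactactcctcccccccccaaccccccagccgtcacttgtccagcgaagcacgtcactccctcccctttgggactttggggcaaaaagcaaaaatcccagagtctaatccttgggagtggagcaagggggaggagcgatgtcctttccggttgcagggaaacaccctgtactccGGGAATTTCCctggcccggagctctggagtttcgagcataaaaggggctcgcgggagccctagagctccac
Csf1: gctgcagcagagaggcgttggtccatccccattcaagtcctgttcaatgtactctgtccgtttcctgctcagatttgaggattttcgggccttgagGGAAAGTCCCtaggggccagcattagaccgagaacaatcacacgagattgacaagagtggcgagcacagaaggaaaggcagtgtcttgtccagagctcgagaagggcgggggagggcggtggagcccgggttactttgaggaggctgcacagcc
Tnfaip3: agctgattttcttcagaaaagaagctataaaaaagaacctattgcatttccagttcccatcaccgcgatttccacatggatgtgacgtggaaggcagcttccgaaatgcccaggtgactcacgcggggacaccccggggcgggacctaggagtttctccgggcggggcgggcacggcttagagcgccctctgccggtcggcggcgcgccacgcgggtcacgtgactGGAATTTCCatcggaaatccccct
They cover chr9:21015690-21015939 (plus strand), chr5:90890995-90891244 (plus), chr3:107760470-107760719 (minus) and chr10:19015411-19015660 (minus), and the match begins 153, 71, 154 and 24 bases before the start. Nfkb2 held a match before the last of its 3 starts only, and Cx3cl1 held none in this window. A match is a run of letters and was not tested for binding. The list was chosen by function, and a link between matches and the changes in these cells was not tested.

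**Figure D3:**
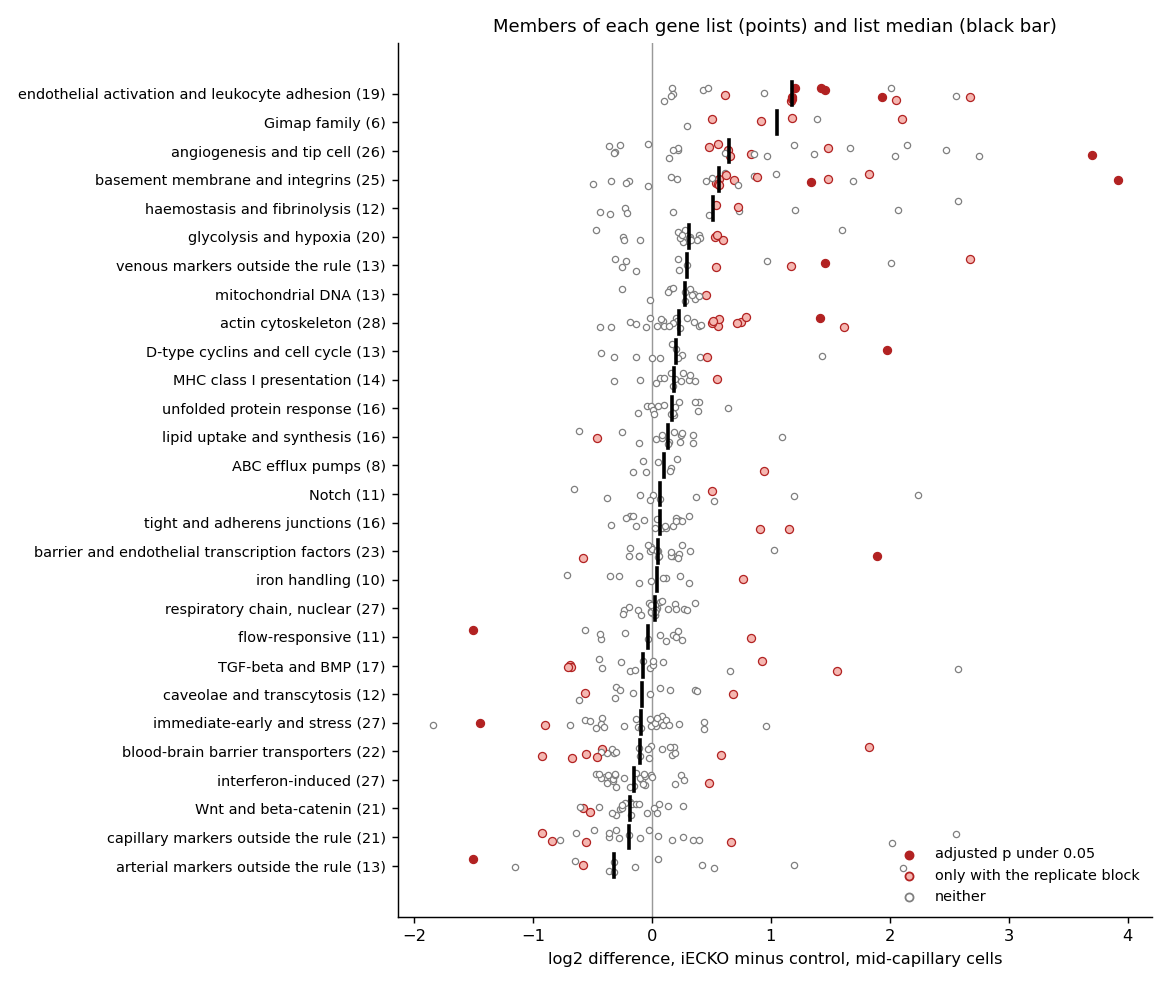
Log2 differences between iECKO and control mid-capillary cells for the members of each gene list, 1 point per gene, with the list median as a line. The activation list has a median of 1.18 and all 19 tested members above 0, while the median of all genes is 0.00.

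Several structural lists lay above the median of all genes. Of 28 genes of the basement membrane and integrins, 25 were tested with a median of 0.56, and 2 rose without pairing (Lamb1 and Nid1) and 11 in the paired fit. Lamc1, a laminin chain, was at 144, 143 and 82.8 CPM in iECKO 1 to 3, against 63.5, 68.4 and 68.0 CPM in control 1 to 3, and Nid2 at 133, 133 and 47.8 CPM against 34.4, 47.3 and 29.6 CPM. Their paired adjusted p were 0.0176 and 0.0246. Col4a1 and Col4a2, the main collagen chains of the vessel wall, were not called in either fit (0.61 and 0.85, adjusted p = 0.459 and 0.149). Of 29 angiogenesis and tip-cell genes, 26 were tested with a median of 0.65; Kit rose without pairing and 7 genes in the paired fit. Nrp1 and Plxnd1, receptors for semaphorins, were among these 7, at 370.1, 484 and 325 CPM against 241, 285 and 221 CPM and 209, 192 and 121 CPM against 106, 93.7 and 93.2 CPM. Angpt2, an antagonist of the Tie2 receptor, was at 115, 111 and 22.9 CPM in iECKO cells and 12.3, 22.0 and 9.87 CPM in control cells and was not called (adjusted p = 0.46, paired 0.0959). Its high values came from iECKO 1 and 2. Kdr, the main VEGF receptor, differed by 0.22 ± 0.23 (adjusted p = 0.9).

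The 28 actin genes had a median of 0.22, and Capg alone rose without pairing against 9 in the paired fit. Rhoc, a small GTPase, was at 1045, 454 and 392 CPM in iECKO 1 to 3, against 299.6, 138 and 179.6 CPM in control 1 to 3 (paired adjusted p = 1.87e-05; 0.316 without pairing). Within each replicate number it was higher in the iECKO library. The 6 Gimap genes, GTPases of immune and endothelial cells, all had differences above 0 with a median of 1.05. Gimap6 was at 509.8, 362 and 275 CPM against 187, 143 and 177 CPM and Gimap4 at 28.9, 16.9 and 12.1 CPM against 6.69, 3.77 and 2.74 CPM, both with an adjusted p of 0.0505 without pairing. In the paired fit 4 of the 6 rose, DESeq2 called 3, and 5 had an unadjusted p under 0.05 without pairing. Of 20 cell-cycle genes 13 were tested, and Ccnd1 alone was called without pairing, and 2 rose in the paired fit. Ccnd2 (0.40 ± 0.21) and Ccnd3 (0.00 ± 0.22) were not, while genes of DNA replication and mitosis such as Mki67 and Top2a were under the count filter.

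Barrier genes had calls in both directions once the libraries were paired. Of 24 transporter genes 22 were tested, 7 above and 15 below 0 with a median of -0.10, and none passed edgeR's test without pairing, where 5 had an unadjusted p under 0.05. DESeq2 called 1 higher and 2 lower. Slc2a1, the glucose transporter, was at 2118, 1390 and 1330 CPM in iECKO 1 to 3 and 1900, 1085 and 1264 CPM in control 1 to 3, with overlapping groups (0.19 ± 0.26, adjusted p = 0.928). In the paired fit 2 transporters rose (Slc1a1 and Slc7a3) and 5 fell. The lactate transporter gene Slc16a1 was at 246, 309 and 485 CPM against 473, 750.4 and 750.3 CPM (paired -0.95, adjusted p = 0.000591). The cationic amino acid transporter gene Slc7a1 was at 385, 359 and 352 CPM against 641, 531 and 580.1 CPM (-0.68, adjusted p = 0.00213). Only the last did not overlap between the groups. The other transporters that fell were Slc16a4, Slco1a4 and Slc6a6, with paired log2 differences of -0.57, -0.43 and -0.47.

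Junction partners of claudin-5 had few calls. Of 21 tight and adherens junction genes 16 were tested, after the gate genes were set aside, and their median was 0.06. None was called by edgeR without pairing or by DESeq2, while 2 had an unadjusted p under 0.05 in edgeR's test, and Marveld2 (tricellulin) and Nectin2 rose in the paired fit (0.92 and 1.11, adjusted p = 0.0129 and 0.00364). Ocln, occludin, was at 198, 232 and 221 CPM against 244, 270.2 and 225 CPM, and Tjp1, the scaffold ZO-1, at 471, 713 and 558 CPM against 618, 749 and 573 CPM. Their log2 differences were -0.18 ± 0.17 and -0.16 ± 0.21 (adjusted p = 0.874 and 0.923); both were lower in iECKO within each replicate number and were not called in the paired fit (adjusted p = 0.426 and 0.489). The 8 ABC efflux pump genes had a median of 0.10 with Abcc1 alone called in the paired fit; Abcb1a, P-glycoprotein, differed by -0.16 ± 0.21 and Abcg2 by -0.08 ± 0.20. Cav1, the coat protein of caveolae, was at 226, 254 and 302 CPM against 389.5, 377 and 390.4 CPM and fell in the paired fit (-0.57, adjusted p = 0.00931; 0.294 without pairing). The insulin receptor gene Insr rose there (0.67, adjusted p = 0.00236), and the other 10 genes of caveolae and transcytosis were not called. Of 22 Wnt pathway genes 21 were tested with a median of -0.18; Sox17 and Tnfrsf19 fell in the paired fit, and Lef1 (-0.18 ± 0.18) and Axin2 (-0.45 ± 0.19) did not pass.

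In the following lists only Meox1 and Edn1 were called without pairing. The 27 tested interferon-induced genes had 22 differences below 0, a median of -0.15 and 0 calls by edgeR without pairing or by DESeq2, with 1 at an unadjusted p under 0.05; Ifitm2 rose in the paired fit. Glycolysis and hypoxia genes had a median of 0.31 over 20 genes and 3 called in the paired fit (Aldoa, Gapdh and Pgk1). Haemostasis genes had a median of 0.51 over 12 with Vwf and Anxa2 called in the paired fit. The TGF-beta list had a median of -0.07 over 17 genes and 0 calls without pairing, where 6 had an unadjusted p under 0.05. In the paired fit 2 rose and 3 fell, against 4.23% of all genes, and DESeq2 called 2 higher and 1 lower. Tgfb1, the ligand, was at 325, 225 and 132 CPM in iECKO 1 to 3, against 91.3, 81.0 and 59.8 CPM in control 1 to 3 (adjusted p = 0.095, paired 1.87e-05). Smad1, a signal transducer of BMP receptors, rose there as well (0.89, adjusted p = 0.0154). Another ligand, Tgfb2 (-0.79), the latent TGF-beta binding protein gene Ltbp4 (-0.72) and Id2, a target of BMP signalling (-0.69), fell there (adjusted p = 0.0038, 0.00782 and 0.00981). Of 23 tested barrier and endothelial transcription factor genes, Meox1 rose, and Sox17 fell in the paired fit alone; Foxq1 (-0.11), Foxf2 (-0.00) and Erg (0.05) were not called. Of 11 flow-responsive genes Edn1 was called without pairing, and Plxnd1 rose in the paired fit (0.80, adjusted p = 0.00313) and with DESeq2, with the flow sensor genes Klf2 and Klf4 at -0.43 ± 0.25 and -0.56 ± 0.22 (adjusted p = 0.75 and 0.46).

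The mosaic deletion allowed a comparison within iECKO libraries, between mid-capillary cells without a Cldn5 UMI at 2000 UMIs (Cldn5-lost, 341, 110 and 209 cells in iECKO 1 to 3) and Cldn5-kept cells (900, 265 and 571). Of 6969 genes tested, 37 were higher and 19 lower in Cldn5-lost cells (0.531% and 0.273%, 0.804% in all; edgeR's quasi-likelihood test with the library as a block, adjusted p under 0.05), and 622 had an unadjusted p under 0.05. DESeq2 called 4 higher (B2m, Cx3cl1, Tbx1, H2-K1) and 2 lower (Tmsb10, Ctla2a), all within the 56. Without iECKO 1 the counts were 7 and 1, without iECKO 2 they were 12 and 3, and without iECKO 3 they were 15 and 13; Cx3cl1 and Tbx1 were called in each. Cldn5-lost cells had medians of 3467, 4179 and 4435 UMIs before thinning, against 3897, 4734 and 4799 in Cldn5-kept cells.

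Among activation genes, Cx3cl1, Cxcl1 and Icam1 were higher in the cells without Cldn5. Cx3cl1 was at 295, 241 and 213 CPM in Cldn5-lost cells and at 199, 109 and 94.6 CPM in Cldn5-kept cells of iECKO 1 to 3, beside 62.9, 57.3 and 58.7 CPM in Cldn5-kept cells of control 1 to 3. The value was higher in the Cldn5-lost class of each library (0.83 ± 0.12, adjusted p = 9.87e-09). Cxcl1 was at 73.6, 78.5 and 42.1 CPM in Cldn5-lost, 28.4, 34.0 and 12.9 CPM in Cldn5-kept and 10.2, 9.63 and 5.68 CPM in control cells (1.41 ± 0.24, adjusted p = 6.32e-06). Icam1 was at 167, 68.0 and 91.0 CPM, 69.2, 61.7 and 56.6 CPM and 21.5, 38.5 and 18.3 CPM in the same order of classes (0.97 ± 0.16, adjusted p = 2.01e-06). Its difference was large in iECKO 1 and small in iECKO 2, and without iECKO 1 it was not called (adjusted p = 0.832). Of the activation list 16 genes were tested here with a median of 0.22, 13 above 0 and 3 called.

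Other genes were also higher in Cldn5-lost cells. Tbx1, a T-box transcription factor gene, was at 192, 241 and 284 CPM in Cldn5-lost cells, 102, 129.8 and 160.0 CPM in Cldn5-kept cells and 73.4, 62.8 and 58.1 CPM in control cells (0.87 ± 0.12, adjusted p = 4.01e-09). Enpp2, which encodes autotaxin, the enzyme that makes lysophosphatidic acid, was at 186, 225 and 279.5 CPM, 144, 102 and 134 CPM and 73.0, 98.8 and 77.6 CPM (0.75 ± 0.12, adjusted p = 5.37e-07). In both genes and in every replicate number the Cldn5-kept cells lay between the Cldn5-lost cells and the controls. Cdh13, T-cadherin, was higher by 1.01 ± 0.24 and Diaph2, an actin nucleator, by 1.00 ± 0.22 (adjusted p = 0.00754 and 0.00191). Mgp, an inhibitor of calcification, was higher by 1.10 ± 0.22 and the anion transporter family gene Slc26a10 by 0.92 ± 0.20 (adjusted p = 0.000371 and 0.00148).

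Antigen presentation and interferon genes were called between the classes, while between the groups no member of these 2 lists passed edgeR's test without pairing or DESeq2's, and 1 of each had an unadjusted p under 0.05. The paired fit called 1 of each between the groups, H2-K1 (0.53, adjusted p = 0.0221) and Ifitm2 (0.46, adjusted p = 0.0207). B2m, the light chain of MHC class I, was at 1718, 1277 and 1358 CPM in Cldn5-lost cells, 1274, 857 and 1029 CPM in Cldn5-kept cells and 966, 1038 and 812 CPM in control cells (0.46 ± 0.08, adjusted p = 1.8e-06). H2-K1, a heavy chain, was at 1210, 858 and 1318 CPM, 867, 719 and 942 CPM and 705, 637 and 582 CPM (0.43 ± 0.08, adjusted p = 4.51e-05). Of 13 MHC class I genes tested, 12 were above 0 with a median of 0.26, and these 2 were called. Of 26 interferon-induced genes 24 were above 0 with a median of 0.22, and 5 were called: Gbp2 (0.82), Rsad2 (0.78), Iigp1 (0.72), Ifit3 (0.66) and Gbp3 (0.62). Rsad2, viperin, was at 118, 131 and 226 CPM in Cldn5-lost and 73.3, 85.1 and 120.4 CPM in Cldn5-kept cells, while control cells were at 103, 143 and 145 CPM. In each replicate number the Cldn5-kept iECKO cells lay below the control cells, and the Cldn5-lost cells lay above them in replicates 1 and 3 only.

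**Figure D4:**
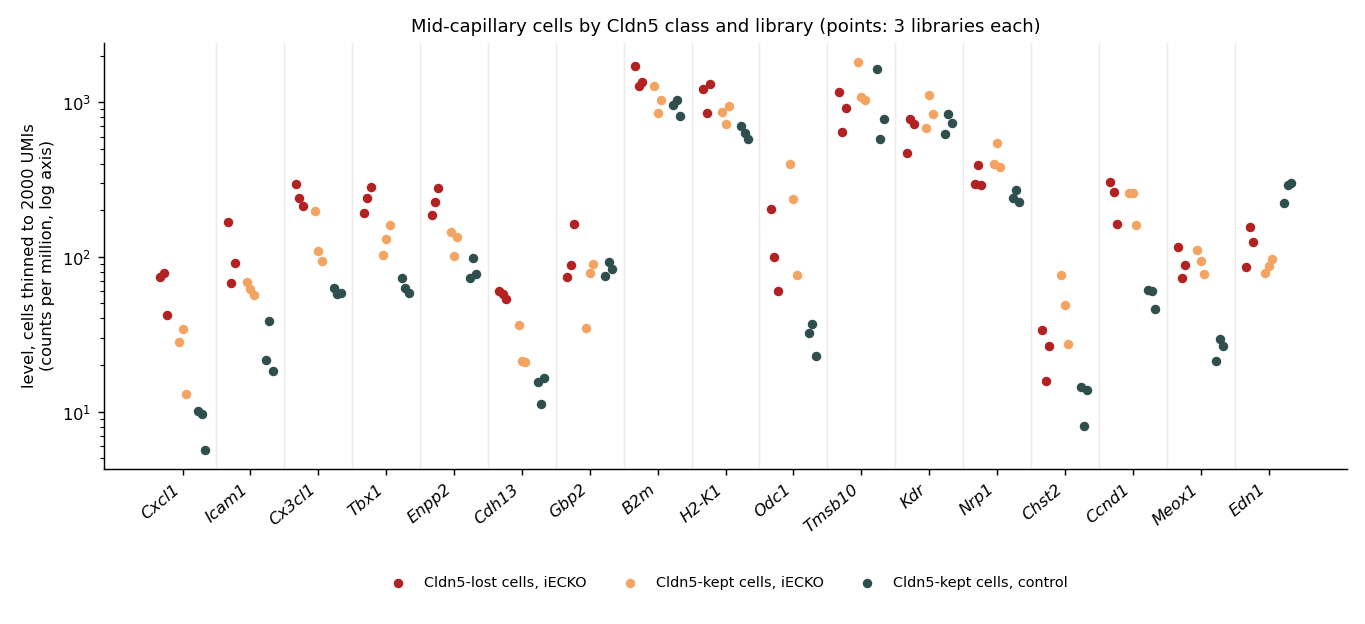
CPM (log axis) in mid-capillary cells thinned to 2000 UMIs, of genes called between the Cldn5 classes and of Ccnd1, Meox1 and Edn1, which were not, with 1 point per library, with Cldn5-lost left, Cldn5-kept in the middle and Cldn5-kept control cells right. In Tbx1 the Cldn5-lost points lie at 192 to 284 CPM, the Cldn5-kept points at 102 to 160 CPM and the control points at 58.1 to 73.4 CPM.

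Genes lower in Cldn5-lost cells included members of the capillary and angiogenesis lists. Odc1, ornithine decarboxylase of polyamine synthesis, was at 206, 99.4 and 59.9 CPM in Cldn5-lost cells, 398, 238 and 76.8 CPM in Cldn5-kept cells and 32.0, 37.0 and 22.7 CPM in control cells (-0.90 ± 0.13, adjusted p = 2.59e-08). Unlike Tbx1, it was furthest from the controls in the Cldn5-kept cells. Tmsb10, thymosin beta 10, was at 1161, 643 and 918 CPM against 1819, 1079 and 1040 CPM (-0.51 ± 0.08, adjusted p = 2.27e-07). Kdr (-0.41 ± 0.08), Nrp1 (-0.43 ± 0.10), Slc16a1 (-0.44 ± 0.10), the carbonic anhydrase gene Car4 (-0.36 ± 0.09) and Ctla2a (-0.42 ± 0.06) were lower in the Cldn5-lost class of each of the 3 libraries. Of the genes named so far, Tmsb10, Slc16a1 and Car4 were highest in venous-side cells in all 3 controls. The sulfotransferase gene Chst2 was lower by 0.94 on the log2 scale, and the other genes named by size were Fosb, AU021092 and Cttnbp2nl, at -0.51, -0.64 and -0.51.

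The classes also differed in marker genes of position along the vessel. CPM in this paragraph carry no TMM factors. Summed arterial markers of the rule were at 176, 191 and 144 CPM in Cldn5-lost cells, against 112, 100.1 and 117 CPM in Cldn5-kept cells, higher in each library. The rule itself allowed at most 1 of these genes in a cell. The 17 arterial markers outside the rule summed to 2123, 1715 and 2001 CPM in Cldn5-lost and 1889, 1301 and 1859 CPM in Cldn5-kept cells, also higher in each library. Without the called gene Mgp the other 16 were at 2009, 1665 and 1992 CPM against 1843, 1261 and 1853 CPM, again higher in each library. The 17 venous markers outside the rule summed to 2002, 1419 and 1843 CPM in Cldn5-lost and 2643, 1809 and 1960 CPM in Cldn5-kept cells, lower in each library, but this rested on Tmsb10. Without the called genes Tmsb10 and Icam1 the other 15 summed to 731, 800.4 and 754 CPM against 869, 797 and 771 CPM, with iECKO 2 slightly the other way. The 25 capillary markers outside the rule summed to 18824, 17159 and 20566 CPM against 21822, 18951 and 21930 CPM. Without the called genes Ctla2a, Slc16a1 and Car4 the other 22 were at 11905, 13953 and 16922 CPM against 11871, 14103 and 17897 CPM, with no common direction. The sums without called genes were added after these data were seen. The part of position in the differences above was not tested. A split by Cldn5 can be made in control libraries too, where cells with 0 or 1 UMI were set against cells with at least 5 in control 1 and 2 (control 3 had too few). Of the 37 genes higher in Cldn5-lost cells, 16 were higher in the low class of both controls, 5 in neither and 16 in 1 of them. Of the 19 lower genes, 10 were lower in both, 3 in neither and 6 in 1. Cx3cl1 was among the genes that moved alike, at 129 against 55.7 CPM in control 1 and 78.6 against 42.4 CPM in control 2 for the low class against the high class, and Tmsb10, Ctla2a and Odc1 were lower in the low class of both. H2-K1, at 500.5 against 701 and 436 against 588 CPM, and Icam1 and Gbp2 went the other way in these 2 controls. These low classes hold 70 cells in each control, and their values were not tested.

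Both classes of iECKO cells were also set against the Cldn5-kept cells of the controls; the 2 comparisons share these control cells. For Cldn5-kept cells 25 genes rose and 6 fell of 9199 (0.272% and 0.0652%, 0.337% in all), and 245 and 101 in the paired fit (2.66% and 1.1%, 3.76% in all). For Cldn5-lost cells 47 rose and 9 fell of 8280 (0.568% and 0.109%, 0.676% in all), and 196 and 82 in the paired fit (2.37% and 0.99%, 3.36% in all). The first pair of counts was 6 and 5 without control 1, 5 and 4 without control 2, 12 and 6 without control 3, 11 and 4 without iECKO 1, 12 and 4 without iECKO 2, and 181 and 56 without iECKO 3. The second was 11 and 1 without iECKO 1, 111 and 24 without iECKO 3, and 32 and 5 without control 2. Ccnd1 differed from control by 2.09 ± 0.23 in Cldn5-lost and 1.99 ± 0.22 in Cldn5-kept cells (adjusted p = 2.49e-05 and 0.000485). Meox1 differed by 1.89 ± 0.24 and 1.88 ± 0.21, and Slc12a2 by 1.46 ± 0.28 and 1.63 ± 0.25. Edn1 was lower by 1.25 in Cldn5-lost and by 1.65 in Cldn5-kept cells on the log2 scale (-1.25 and -1.65). None of these 4 genes was called between the 2 classes, where the log2 differences were 0.13 ± 0.11, 0.05 ± 0.16, -0.12 ± 0.19 and 0.35 ± 0.16. Their change from control was thus present in cells that still held the transcript. Icam1 differed from control by 2.14 ± 0.34 in Cldn5-lost and 1.25 ± 0.26 in Cldn5-kept cells, Tbx1 by 1.84 ± 0.20 and 0.98 ± 0.20, and Cxcl1 by 2.82 ± 0.32 and 1.44 ± 0.36. Of these values the last was not called (adjusted p = 0.107; 0.00231 in the paired fit), and the others were.

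The iECKO differences of mid-capillary cells were compared with those of arterial and venous-side capillary cells by a group-by-zone term with the library as a block. In each iECKO library the share of cells without Cldn5 was larger among mid-capillary than among venous-side cells. At 2000 UMIs, 25.3% ± 0.799 of iECKO mid-capillary cells, 27.9% ± 1.29 of arterial and 9.10% ± 0.928 of venous-side cells held no Cldn5 UMI (SD, n = 3), against 1.17% ± 0.661, 1.08% ± 0.345 and 0.570% ± 0.225 in the controls. Mid-capillary minus venous-side shares were 17.3, 16.6 and 14.8 percentage points in iECKO 1 to 3, against 0.861, 0.863 and 0.0716 in control 1 to 3 (two-sided exact permutation p = 0.1, the smallest possible). Mid-capillary minus arterial shares were -3.18, -2.65 and -1.88 points in iECKO 1 to 3 and 0.489, 0.184 and -0.409 points in the controls (two-sided exact permutation p = 0.1). The level of Cldn5 over all cells of a zone was not called different between zones: its log2 difference was -0.76 in mid-capillary, -1.18 in arterial and -0.70 in venous-side cells, with a group-by-zone term of 0.40 ± 0.13 against arterial (adjusted p = 0.473) and -0.07 ± 0.06 against venous-side cells (adjusted p = 0.78).

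Against arterial cells, 34 genes had a higher and 8 a lower iECKO difference in mid-capillary cells, of 11247 tested (0.302% and 0.0711%, 0.373% in all), with 948 at an unadjusted p under 0.05; DESeq2 called 1 higher and 0 lower, and the 1 is not among the 42. Leaving out a library gave 4 and 1 without control 1, 8 and 3 without control 2, 9 and 6 without control 3, 10 and 5 without iECKO 1, 23 and 11 without iECKO 2, and 83 and 28 without iECKO 3. Igfbp3, a binding protein of insulin-like growth factors, was at 172, 35.3 and 6.72 CPM in iECKO and 13.4, 13.8 and 4.66 CPM in control mid-capillary cells, beside 563, 158 and 39.6 CPM and 116, 129 and 77.8 CPM in arterial cells. The term was 1.44 ± 0.22 (adjusted p = 0.0206), and the mid-capillary values of iECKO 1 and 2 were above every control while iECKO 3 lay within their range. Prcp, a lysosomal carboxypeptidase gene, was at 83.2, 67.1 and 43.7 CPM in iECKO and 30.6, 24.2 and 29.1 CPM in control mid-capillary cells, beside 31.0, 29.0 and 26.7 CPM and 21.6, 21.3 and 21.8 CPM in arterial cells (0.76 ± 0.18, adjusted p = 0.0451). Sema6d, a membrane semaphorin, had a term of 0.66 ± 0.12 (adjusted p = 0.00812). Hspa1a, a heat-shock gene, had a term below 0: it differed by -1.45 in mid-capillary and -0.92 in arterial cells (-0.49 ± 0.09, adjusted p = 0.00812).

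Against venous-side cells, 39 genes had a higher and 18 a lower iECKO difference in mid-capillary cells, of 11595 tested (0.336% and 0.155%, 0.492% in all), and DESeq2 called 21 and 7, of which 26 are among the 57. Leaving out a library gave 18 and 2 without control 1, 12 and 5 without control 2, 22 and 2 without control 3, 31 and 9 without iECKO 2, and 103 and 80 without iECKO 3. Activation genes were among them. Icam1 was at 85.4, 70.6 and 63.6 CPM in iECKO and 22.1, 39.3 and 18.6 CPM in control mid-capillary cells, beside 185, 132 and 87.8 CPM and 81.9, 157 and 60.1 CPM in venous-side cells. In each control library mid-capillary cells had less Icam1 than venous-side cells, and the term was 1.04 ± 0.18 (adjusted p = 0.0326). Tnfaip3 differed by 1.94 in mid-capillary and 1.05 in venous-side cells (0.84 ± 0.15, adjusted p = 0.00304), and Il2rg by 1.55 and 0.80 (0.72 ± 0.11, adjusted p = 0.000311). Phlda1, a pleckstrin-domain gene, was at 108, 56.2 and 25.1 CPM in iECKO and 14.3, 14.4 and 9.32 CPM in control mid-capillary cells, against 127, 72.3 and 44.3 CPM and 36.6, 38.1 and 33.7 CPM on the venous side (1.07 ± 0.16, adjusted p = 0.000311). Sox4, a transcription factor gene, had a term of 0.85 ± 0.14 (adjusted p = 0.00611). At 2000 UMIs, 9.10% of venous-side and 25.3% of mid-capillary iECKO cells had no Cldn5 UMI. Control venous-side cells also held more Cldn5 than control mid-capillary cells, at means of 5410 and 4466 CPM without TMM factors. A smaller share at 0 UMIs therefore need not mean that fewer venous-side cells had lost the transcript. The terms went in both directions, and the part of Cldn5 loss in them was not tested. Ccnd1 and Meox1 differed by 1.83 and 1.67 in venous-side and by 1.18 and 2.72 in arterial cells.

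**Figure D5:**
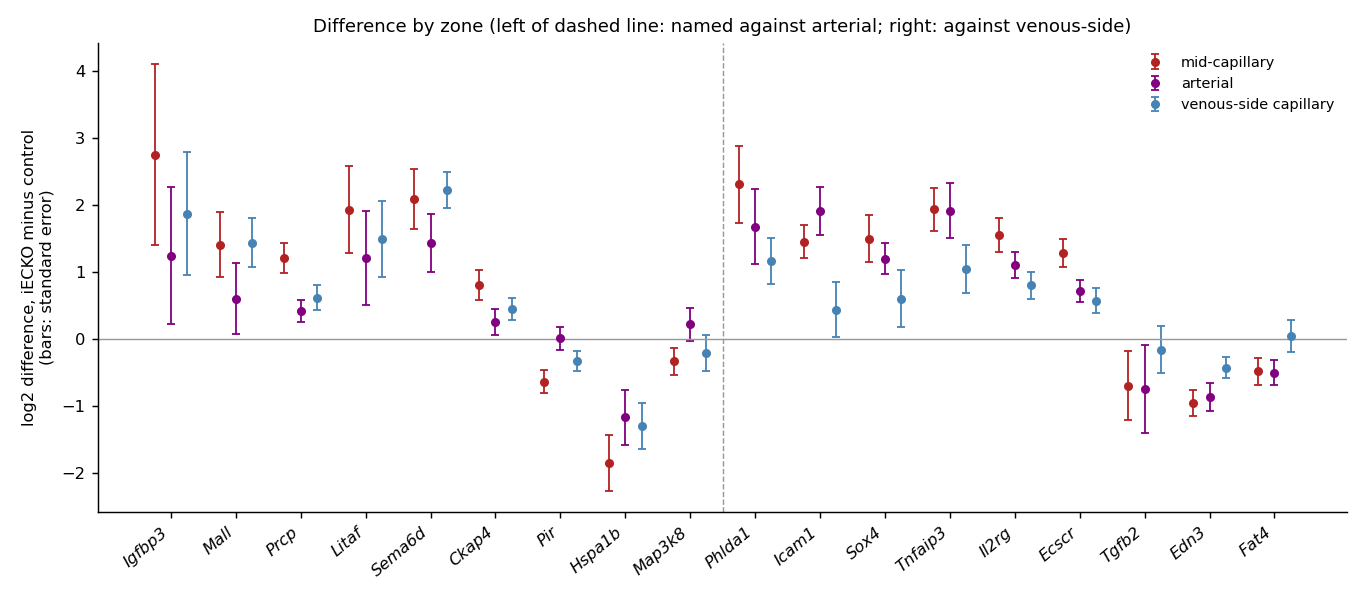
Log2 differences between iECKO and control cells in mid-capillary, arterial and venous-side capillary cells for genes of the group-by-zone comparisons, with standard errors as bars. In Icam1 the difference is 1.46 in mid-capillary, 1.91 in arterial and 0.44 in venous-side cells.

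The share of gated endothelial cells that met the mid-capillary rule was 33.1%, 26.6% and 28.9% in iECKO 1 to 3, against 36.4%, 30.9% and 25.0% in control 1 to 3. The groups overlapped, with means of 29.5% ± 3.31 and 30.8% ± 5.70 (SD, n = 3) and a difference of -1.25 percentage points (two-sided exact permutation p = 0.8). With cells holding Apln or Ccn3 UMIs kept, the difference was 0.458 points, without control 1 it was 1.57 and without iECKO 2 it was 0.210. With the rule applied after thinning each cell to 2000 UMIs the shares were 38.9% ± 6.81 and 44.0% ± 5.43, a difference of -5.06 points (two-sided exact permutation p = 0.4). Cxcl12 and Tfrc, which enter the rule, stood lower in iECKO cells, and the part of this in the share was not tested.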

How the data were processed

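The deposited gene-by-barcode tables hold counts of UMIs, whole numbers per gene that the authors obtained from Cell Ranger. The version, 6.1.1, is in the file headers, and the submitters' processing notes name mm10 and Seurat. The counts are not normalised. Depth was 15727366 to 49350802 counts per library. Cells were chosen by the marker rule of the report; no doublet caller was run, and leaving out the highest 5% of UMIs was an alternative. The members, gene lists and tests were chosen with earlier results of these data known.

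Counts were summed over the mid-capillary cells of each library, filtered with filterByExpr, scaled by TMM and tested with edgeR's robust quasi-likelihood fit (edgeR 4.0.16, R 4.3.3), with Benjamini-Hochberg adjustment over all genes; DESeq2 1.42.0 was an alternative. The 31 genes of the rule were left out of the counts of called genes, of the list counts and of the group-by-zone fits. They stayed in the other fits and in the adjustment of those fits. Thinning drew 2000 UMIs per cell without replacement (numpy 2.4.6). Exact permutation tests and Clopper-Pearson intervals came from scipy 1.17.1. The script was tested on simulated data. Of 32286 feature IDs, 32158 were in the GENCODE vM21 annotation (GRCm38) that gave coordinates.

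Replicate numbers come from the sample titles. Libraries of the same number deviated together from their group means (r of 0.427, 0.428 and 0.373 over 10872 genes). All other pairs correlated negatively, which follows in part from centring each group on its own mean. The labels do not say what the numbers stand for. The libraries were treated as pairs by number in an alternative fit, and paired values are given where they change a call. Genes were named by a rule: Cldn5 and the 4 markers, the 12 largest changes each way with groups apart and a mean of at least 30 CPM (the lower ones filled from the paired fit), up to 4 members of each list, and the 6 largest each way between Cldn5 classes and between zones. Predicted, mitochondrial and sex-linked genes enter the counts without being named. A gene that the zone rule picked is not reported here. Genes outside this rule that the text names were chosen after their values were seen.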

Additional observations from a re-analysis of the deposited data

Results flagged for a closer look

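The iECKO difference of mid-capillary cells differed from that of arterial or venous-side cells by the group-by-zone term (edgeR's quasi-likelihood test, adjusted p under 0.05) for the following named genes, each with the term on the log2 scale. The 2 zones of a library share its depth and free RNA, and no explanation of these terms was tested.

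Against arterial cells the term was above 0 for Igfbp3 (1.44, adjusted p = 0.0206) and for Mall, a MAL-family membrane protein (0.83, 0.00108). The same held for Prcp (0.76, 0.0451) and Litaf, a protein of late endosomes (0.74, 0.0441). Sema6d (0.66, 0.00812) and the reticulum membrane protein gene Ckap4 (0.59, 0.0461) completed this set. The term was below 0 for Pir, pirin (-0.64, 0.000899), and for the heat-shock genes Hspa1b (-0.64, 0.00215) and Hspa1a (-0.49, 0.00812). It was also below 0 for the solute carrier gene Slc16a9 (-0.55, 0.0347), the kinase gene Map3k8 (-0.55, 0.0451) and Srarp (-0.44, 0.0122). DESeq2 called none of these 12 at an adjusted p under 0.05.

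Against venous-side cells the term was above 0 for Phlda1 (1.07, adjusted p = 0.000311), Icam1 (1.04, 0.0326) and Sox4 (0.85, 0.00611). Tnfaip3 (0.84, 0.00304), Il2rg (0.72, 0.000311) and Ecscr (0.69, 3.63e-06) followed. It was below 0 for the growth factor gene Tgfb2 (-0.58, 0.022), Atp13a3, a P-type ATPase gene (-0.50, 0.0425), and the cadherin gene Fat4 (-0.49, 0.0331). Edn3 (-0.49, 0.0242) and Hspa1b (-0.49, 0.00761) were below 0 as well. Tgfb2 differed by -0.69 in mid-capillary and -0.16 in venous-side cells, and Fat4 by -0.48 and 0.05.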

How the results depend on the processing

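Calls between groups depended on pairing and on single libraries. The replicate block gave 327 higher and 132 lower genes (DESeq2 126 and 23, no filter on low counts 256 and 73, the block with Apln or Ccn3 cells kept 393 and 165), and the cause was not tested. The lower count was 5 with Apln or Ccn3 cells kept and 6 with cells of at least 2000 UMIs and at most 5% mitochondrial UMIs. Leaving out a library gave 5 to 182 higher and 1 to 34 lower genes. In the block fit it gave 279 and 109 without control 1, 98 and 26 without control 2, 411 and 160 without control 3, 251 and 114 without iECKO 1, 191 and 66 without iECKO 2, and 457 and 208 without iECKO 3, where the lone library of a number then adds nothing. The fall of Cldn5 passed with DESeq2 (-0.77), the block (-0.77) and the block with Apln or Ccn3 cells kept (-0.74). Without a library it was -0.94 to -0.67 (adjusted p = 0.212 to 0.697), and in the block fit -0.88 without control 1, -0.72 without control 3, -0.89 without iECKO 1, -0.72 without iECKO 2 and -0.72 without iECKO 3 (adjusted p = 6.34e-07 to 0.0681 over the 6).

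Between Cldn5-lost and Cldn5-kept cells the counts were 105 and 172 with 0 or 1 against at least 5 UMIs, 4 and 2 with DESeq2, 24 and 33 with no filter, 59 and 45 with no thinning, and 7 to 15 and 1 to 13 with a library left out. For Cldn5-kept cells against control they were 60 and 15 with DESeq2, 245 and 101 with the block and 5 to 181 and 4 to 56 with a library left out. For Cldn5-lost cells they were 196 and 82 with the block and 11 to 111 and 1 to 24 with a library left out. Against arterial cells they were 1 and 0 with DESeq2, 79 and 26 with Apln or Ccn3 cells kept, and 4 to 83 and 1 to 28 with a library left out. Against venous-side cells they were 21 and 7 with DESeq2, and 12 to 103 and 2 to 80 with a library left out.

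The mid-capillary share of the gate reversed with Apln or Ccn3 cells kept (0.458 points), without control 1 (1.57) and without iECKO 2 (0.210), with -4.13 to 1.57 over the libraries left out, and it was -5.06 points with the rule applied after thinning. The excess of cells without Cldn5 was 23.7 to 24.5 points with a library left out. For the named genes in the comparison of the groups, 388 values kept their direction and side of the threshold, 103 newly passed and 59 no longer passed, and none changed direction; for the other comparisons 164 kept their side and 116 no longer passed. The median of a list changed sign under some alternative for ABC pumps, junctions, caveolae, iron handling, Notch, immediate-early, flow-responsive and nuclear respiratory chain genes. iECKO 2 had the fewest mid-capillary cells (481).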

Other observations

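Genes of energy and protein quality control had counts of calls near the share over all genes (0.36% without pairing, 4.23% paired). The 13 genes of mitochondrial DNA had a median log2 difference of 0.28 with 11 above 0, 0 calls by edgeR without pairing or by DESeq2, 0 at an unadjusted p under 0.05 and 1 that rose in the paired fit. The 27 nuclear genes of the respiratory chain had a median log2 difference of 0.02 and 0 calls by edgeR, paired or not, or by DESeq2, with 0 at an unadjusted p under 0.05. The 16 genes of the unfolded protein response had a median of 0.17, 0 calls by the same tools and 1 at an unadjusted p under 0.05. Of 20 genes of lipid uptake and synthesis, 16 were tested with a median of 0.14 and 1 that fell in the paired fit. Of 11 iron-handling genes, 10 were tested with a median of 0.04, and Slc11a2, an iron importer gene, rose in the paired fit (0.80, adjusted p = 0.0207).

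Genes called between the groups outside the naming rule also included Tbx1, at 136, 162 and 162 CPM in iECKO 1 to 3, against 73.4, 59.7 and 65.5 CPM in control 1 to 3 (1.21 ± 0.16, adjusted p = 0.00853), and Enpp2, at 151, 142 and 163 CPM against 75.8, 87.7 and 80.3 CPM (0.90 ± 0.15, adjusted p = 0.0277). Both were chosen after their values were seen. Their groups did not overlap, which only describes genes already called. Both also differed between Cldn5-lost and Cldn5-kept cells. Birc3, an inhibitor of apoptosis induced by NF-kappaB, was at 42.4, 40.8 and 28.4 CPM against 14.3, 18.6 and 17.8 CPM (1.13 ± 0.21, adjusted p = 0.0407). Odc1 was at 379.9, 196 and 71.3 CPM in iECKO and 30.6, 38.2 and 27.4 CPM in control cells; its wide spread among iECKO libraries left it uncalled by edgeR without pairing (adjusted p = 0.306), and DESeq2 called it (adjusted p = 0.00563). Of the 39 genes called between the groups and the 56 called between the Cldn5 classes, 6 are shared, or 15.4% of the 39 and 10.7% of the 56.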
